A study of Rattus norvegicus with 12 samples.

Results

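The nuclear genes for the subunits of oxidative phosphorylation were followed in the small intestine of Belgrade rats. They were chosen by name, as every probe set that the array annotation ties to a single gene of the families Nduf, Sdh, Uqcr, Cyc1, Cox4 to Cox8 or Atp5 and whose mean signal over the 12 arrays was at least 100. This gave 81 probe sets for 74 genes, of 13501 probe sets for 10067 genes that met the same signal minimum. Complex I had 35 probe sets, complex II had 5, complex III had 9, complex IV had 13 and complex V had 19.

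Oxidative phosphorylation takes place in the inner membrane of the mitochondrion. Complex I (NADH dehydrogenase) and complex II (succinate dehydrogenase) pass electrons to ubiquinone, complex III passes them on to cytochrome c, and complex IV (cytochrome c oxidase) passes them to oxygen. Complexes I, III and IV pump protons, and complex V (ATP synthase) uses the returning protons to make ATP. Electrons travel along iron-sulfur clusters and hemes, so that several subunits cannot work without iron. Enterocytes, the absorptive cells of the intestinal lining, spend much ATP on the transport of nutrients. The mitochondrial genome encodes some core subunits of complexes I, III, IV and V, which the gene names used here do not cover, while complex II is encoded wholly in the nucleus.

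The Belgrade rat carries a recessive mutation of Slc11a2, which encodes the metal transporter DMT1, and homozygotes (b/b) are known to be anaemic and iron deficient. Heterozygotes (+/b) were the comparison, and they carry the allele too. Scrapes of mucosa from duodenum and jejunum gave 4 groups of 3 arrays, namely +/b duodenum, b/b duodenum, +/b jejunum and b/b jejunum. By the design text, both segments were taken from 3 groups of rats of either genotype, so that the replicate is a group of rats. The sources used here do not give age, sex, diet or the number of rats in a group. In a scrape of many cell types, fewer cells of a type and less RNA per cell cannot be told apart.

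Signals are array intensities per probe set after each array had been scaled to a trimmed mean of 500. They were set against each other between probe sets only for the signal minimum, for brighter and dimmer probe sets and for the members' rank among all signals. A change is a difference of log2(signal + 16), given with the standard error (SE) of a limma fit over all 12 arrays, and a probe set was called when its Benjamini-Hochberg adjusted p over 17694 probe sets was under 0.05. The +/b duodenum arrays 2 and 3 had been deposited at trimmed means of 51.6 and 126.6 against 500.2 for the others, and were multiplied by 9.69 and 3.95. Replicate 1 of b/b duodenum had the lowest median Spearman correlation with the others (0.836, against 0.875 to 0.917 for the other 11 arrays). The summed signal of 10 exocrine pancreas genes reached 156580 on the +/b duodenum 2 array and 7599 on the b/b duodenum 3 array, and lay between 1045 and 1781 on the remaining 10. Of the 6 enterocyte markers measured, Vil1, a brush border protein, had signals between 14480 and 45680.

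Of the 81 members, 74 had a mean signal of 1000 or more over the 12 arrays. Just above the signal minimum stood the dimmer probe set of Atp5me, a small membrane subunit of ATP synthase (mean signal 136), and one of the 3 probe sets of Atp5if1, an inhibitor protein of ATP synthase (137). Just below it stood a second probe set of Ndufa9 (80.4) and the only one of Ndufa4l2 (79.9). The other 6 probe sets that matched by name but were too dim were a second Atp5po (72.8), Cox7b2 (57.8), Cox4i2 (45.0), Cox6b2 (35.1), Cox8b (25.9) and Cox6a2 (24.2). Cox6a2 and Cox8b are the isoforms of heart and skeletal muscle and Cox6b2 and Cox7b2 those of testis. The widely expressed isoforms Cox4i1, Cox6a1, Cox6b1, Cox7b and Cox8a were all members. Cox7a1, which is known as a muscle isoform, was a member with signals of 5908 to 9595 over the 12 arrays. The summed signal of 6 smooth muscle markers was 1930 to 3872, and their part in its level was not tested. One match, Cox6c-ps1, is by its symbol a pseudogene of Cox6c, and its probe set (mean 261) is kept here as uncertain.

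Between the genotypes, no subunit was called in either segment. In the duodenum the median change from +/b to b/b was -0.0048 over the 81 members, with 38 above 0 and 43 below (55.5% of all tested were below), and the median of all tested probe sets was -0.05. In the jejunum the median was -0.06, with 20 above 0 and 61 below (54.5% of all tested), beside -0.03 for all tested. The smallest adjusted p of a member was 0.788 in the duodenum and 1.00 in the jejunum (limma). Over all tested probe sets 0.0396% were called in the duodenum and 0.0339% in the jejunum, so that a count of 0 among 81 is near the background. At an unadjusted p under 0.05, 1 member was higher and 1 lower in the duodenum, where 2.5% and 3.67% of all probe sets were, and 0 members passed in the jejunum, where 0.627% and 0.712% did.

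**Figure D1:**
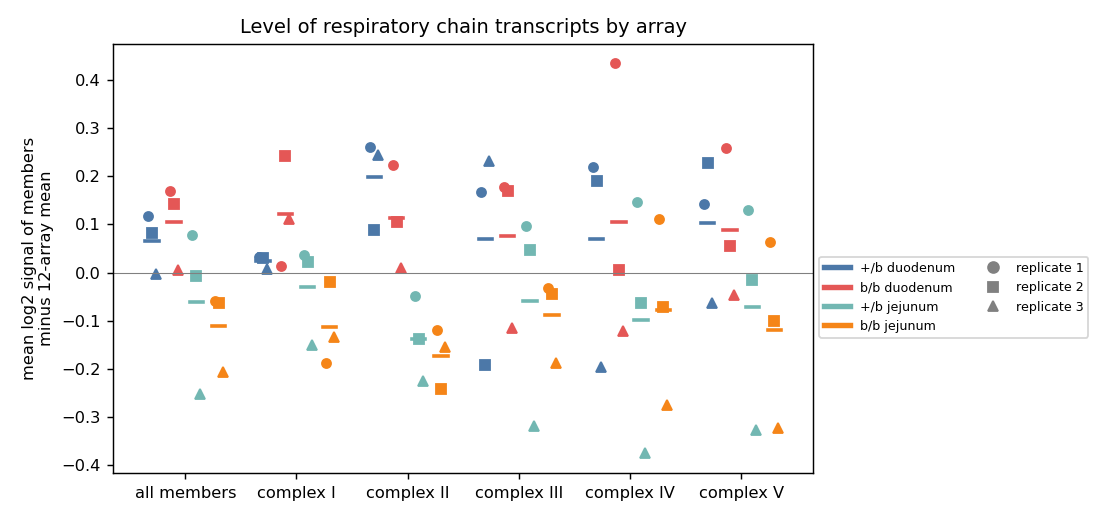
Mean log2 signal of the member probe sets on each of the 12 arrays, minus the mean over the 12 arrays, for all 81 members and for each complex. Points are arrays (the shape gives the replicate number) and bars are means of 3 arrays. For all members the +/b and b/b duodenum arrays overlap (-0.0028 to 0.12 and 0.01 to 0.17), and the 6 jejunum arrays run from -0.25 to 0.08.

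The data bound the size of a genotype change in array signal for most subunits, probe set by probe set. The intervals are not adjusted for the number of members. The 95% interval of the change lay within 2-fold in either direction for 71 of 81 members in the duodenum (87.7%, against 56.1% of all tested) and for 73 in the jejunum (90.1%, against 62.2%). Within 1.5-fold it lay for 33 members in the duodenum (40.7%, against 13.1% of all tested) and 45 in the jejunum (55.6%, against 16.5%). Among the 74 members with a mean signal of 1000 or more, the changes ran from -0.45 to 0.51 in the duodenum and from -0.26 to 0.37 in the jejunum. The median SD within a group was 0.23 for a member on the log2 scale, against 0.38 for all tested. How many members lay below 0 moved with single arrays. The duodenum count of 43 was 27 without b/b duodenum replicate 3, and the jejunum count of 61 was 37 without +/b jejunum replicate 1 and 39 without b/b jejunum replicate 3.

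The genotype medians of the complexes lay between -0.15 and 0.13. In the duodenum complex I had a median of 0.13, with 23 of 35 probe sets above 0. Complex II had -0.15 (1 of 5 above 0), complex III 0.05 (5 of 9), complex IV -0.04 (4 of 13) and complex V -0.07 (5 of 19). In the jejunum the medians were -0.09, -0.04, -0.06, -0.02 and -0.09 in the same order. Across the 81 members the changes in duodenum and jejunum, which share no array, had a Pearson correlation of 0.102, against 0.185 across all tested probe sets.

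**Figure D2:**
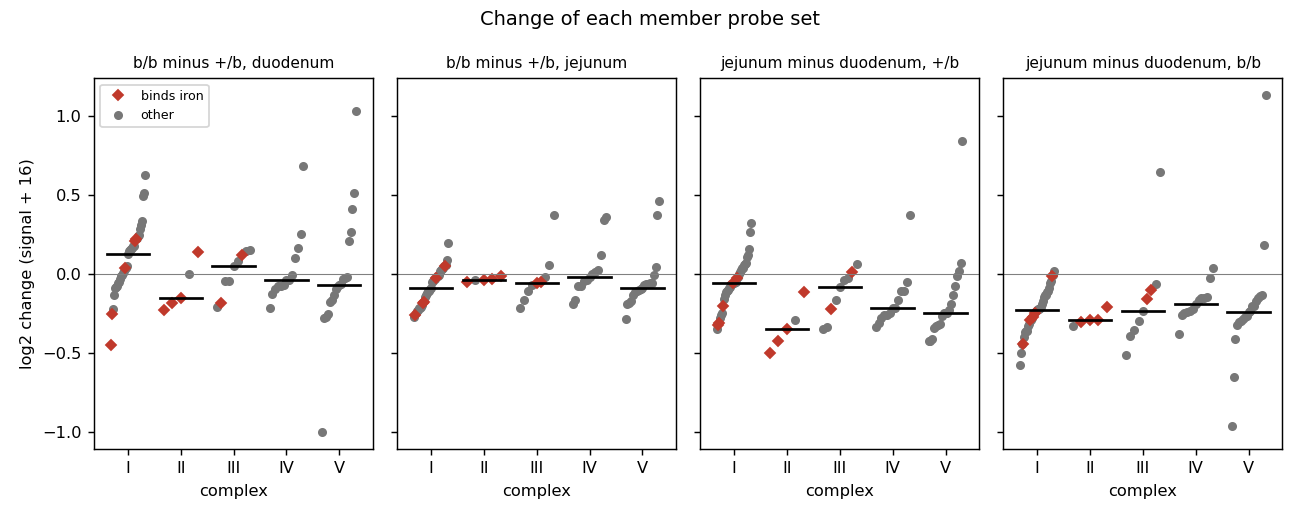
Log2 change of each of the 81 member probe sets (points) by complex, in 4 comparisons, on the log2(signal + 16) scale. Red diamonds are the 11 probe sets of subunits that bind iron and black bars are medians. The genotype panels spread on both sides of 0, and in b/b rats 76 of 81 points lie below 0 between the segments.

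Iron is bound by 10 of the genes, which had 11 probe sets. Ndufs1, Ndufs7, Ndufs8, Ndufv1 and Ndufv2 hold the iron-sulfur clusters of complex I, Sdhb holds those of complex II, Sdhc and Sdhd together bind its heme, Uqcrfs1 is the Rieske iron-sulfur protein and Cyc1 is cytochrome c1. As a group they had a median genotype change of -0.15 in the duodenum (6 of 11 below 0) and of -0.05 in the jejunum (10 of 11 below 0). The other 70 members had -0.0044 and -0.06. None of the 11 was called, with limma adjusted p between 0.788 and 0.988 in the duodenum and at 1.00 in the jejunum. Every one of these 11 intervals lay within 2-fold in both segments, with outermost bounds of -0.81 and 0.69 (duodenum) and of -0.62 and 0.51 (jejunum).

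Ndufs1, the largest iron-sulfur subunit of complex I, had the smallest genotype p of the members. Its signal was 5073, 5891 and 5201 in +/b duodenum and 3805, 4472 and 3573 in b/b duodenum. The groups did not overlap, and the change was -0.45 ± 0.17 (SE, n = 3 per group, limma adjusted p = 0.788, unadjusted 0.0176). In the jejunum the signals were 4674, 4904 and 4428 in +/b and 3481, 3951 and 4316 in b/b, again without overlap, with a change of -0.26 ± 0.17 (limma adjusted p = 1.00). Ndufs1 was the only member lower in b/b without overlap in both segments, which 97 of all tested probe sets (0.548%) were.

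The other members that did not overlap between genotypes are named here after their values were seen. In the duodenum 2 members were lower (5.53% of all tested were), Ndufs1 and the brighter Sdhd probe set, and 2 were higher (3.18%). Sdhd had 14393, 16250 and 16919 in +/b and 13735, 12870 and 13960 in b/b duodenum, a change of -0.23 ± 0.18, while its second probe set had 0.14 ± 0.24 with overlap. Ndufa6, an accessory subunit of complex I, had 8404, 5789 and 7886 in +/b and 11956, 10278 and 9065 in b/b duodenum, a change of 0.51 ± 0.20 (limma adjusted p = 0.789). Ndufv3, another accessory subunit, had 0.33 ± 0.21 on its brighter probe set and -0.22 ± 0.39 on the dimmer. In the jejunum Ndufs1, Ndufs3, Ndufb5 and Ndufc1 were lower without overlap (4.54% of all tested were), with changes between -0.26 and -0.10, and a dim probe set of Atp5if1 was higher (3.35%).

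The remaining iron subunits overlapped between the genotypes in both segments. Sdhb had 19645, 21196 and 16630 in +/b and 19681, 17486 and 13708 in b/b duodenum, a change of -0.18 ± 0.22. Ndufv2, which holds a single cluster of complex I, had -0.26 ± 0.20 in the duodenum and -0.18 ± 0.20 in the jejunum. Ndufv1, which binds NADH and flavin beside its cluster, had 0.21 ± 0.17 and -0.18 ± 0.17, and Ndufs8 had 0.22 ± 0.22 and -0.02 ± 0.22. Ndufs7 had 0.04 ± 0.22 and 0.05 ± 0.22. In complex III, Cyc1 had -0.18 ± 0.20 and -0.06 ± 0.20, and Uqcrfs1 had 0.12 ± 0.23 and -0.05 ± 0.23. Hbb, the beta globin gene, marks blood, and the summed signal of the 3 blood markers was 12414 to 17530 in b/b against 1899 to 3508 in +/b duodenum and 10081 to 14174 against 1943 to 2995 in the jejunum. The part of blood cells in the subunit levels was not tested.

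**Figure D3:**
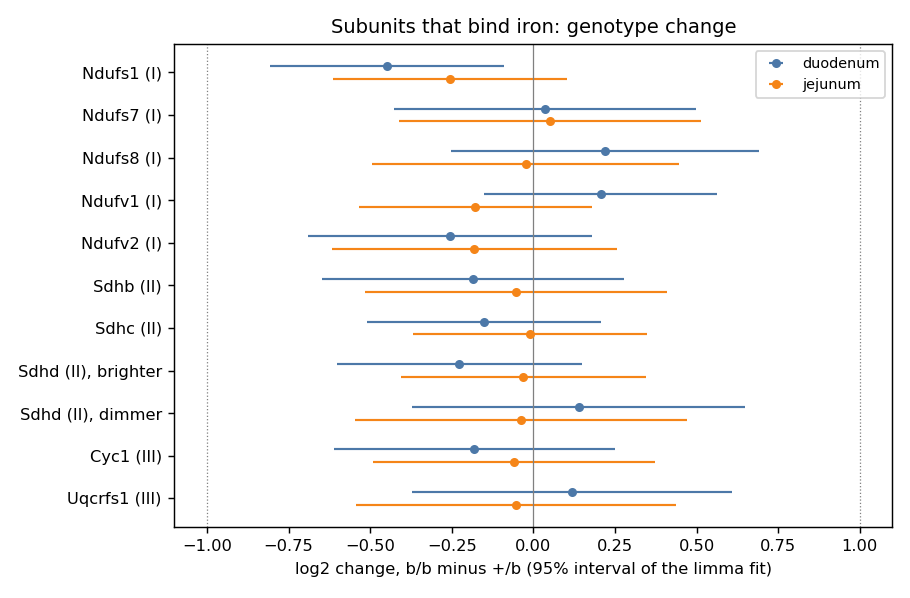
Genotype change, b/b minus +/b, of the 11 probe sets whose product binds iron, with the 95% interval of the limma fit, in duodenum and jejunum. The complex is given in brackets, and Sdhd has a brighter and a dimmer probe set. All intervals lie inside the dotted lines at 2-fold, and the duodenum interval of Ndufs1 (-0.81 to -0.09) is the only one that does not include 0.

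The isoforms that were members and the inhibitor gave no call either. No listed isoform pair had both partners among the members, and Cox7a2, the listed partner of Cox7a1, was not a member. Cox4i1, the common isoform of a regulatory subunit of complex IV, had genotype changes of -0.07 ± 0.28 and 0.00 ± 0.28. Cox6a1 (-0.04 ± 0.31 and 0.01 ± 0.31), Cox8a (-0.07 ± 0.30 and 0.03 ± 0.30) and Cox7a1 (0.17 ± 0.20 and 0.12 ± 0.20) were likewise within 1 SE of 0. Ndufa4, once counted with complex I and now known as a subunit of complex IV, had -0.21 ± 0.22 and -0.19 ± 0.22. The 3 probe sets of Atp5if1 disagreed in the duodenum, where the bright one had -0.06 ± 0.21 and the dim ones 1.03 ± 0.58 and 0.41 ± 0.54. Atp5me likewise had 0.51 ± 0.39 on its bright and -0.999 ± 0.58 on its dim probe set. Those 3 dim probe sets had mean signals of 136 to 260. Ndufs4, an accessory subunit of complex I with one of the largest duodenum changes, had 821, 972 and 472 in +/b and 964, 961 and 1520 in b/b duodenum, with overlap and a change of 0.62 ± 0.40 (limma adjusted p = 0.836). In the jejunum it had 576, 960 and 1339 in +/b and 402, 797 and 1291 in b/b, and a change of -0.27 ± 0.40. Only 2 members, both dim, exceeded 1 on the log2 scale in any comparison, one each of Atp5if1 and Atp5me.

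Between the segments most subunits had lower signals in the jejunum than in the duodenum, though no single one passed the test. The median change from duodenum to jejunum was -0.23 in b/b rats, a level 0.850 times that of the duodenum, and 76 of 81 members were below 0 (41.9% of all tested were below and 58.1% above, with a median of 0.07). In +/b rats it was -0.11, with 63 of 81 below 0 (43.4% of all tested, median 0.05). The contrasts of the genotypes share no array, and 62 members (76.5%) were below 0 in both, against 24.7% of all tested. Counts of 63 and 76 of 81 by themselves force most of that overlap. Across the members the changes in the +/b and b/b contrasts had a Pearson correlation of 0.161, against 0.448 across all tested. No member was called by limma in either fit, where 0.0565% of all tested were called in +/b and 0.763% in b/b rats (higher, 0.0226% and 0.345%, and lower, 0.0339% and 0.418%). The smallest adjusted p were 0.737 for Sdhd in +/b and 0.296 for Ndufb7 in b/b rats. At an unadjusted p under 0.05, 2 members were lower in +/b and 4 in b/b rats, against 2.07% and 3.5% of all tested, and 0 were higher, against 3.29% and 6.26%. Without overlap between the 3 duodenum and the 3 jejunum arrays, 21 members were lower in b/b rats (25.9%, against 5.3% of all tested) and 10 in +/b rats (12.3%, against 4.71%). Of those, 7 were in both lists, 70% of the +/b list and 33.3% of the b/b list. The 7 were Ndufa13, Ndufs3, Sdhc, the brighter Sdhd, Cox6b1, Atp5pd and the bright Atp5if1 probe set. The higher direction held 1 member without overlap in b/b rats, the dimmer Uqcrc2 probe set, and 0 in +/b rats, against 9.53% and 6.1% of all tested.

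Each group of rats gave both segments, so the difference can be read within it. Averaged over the members it was -0.04, -0.09 and -0.25 in +/b groups 1, 2 and 3 and -0.23, -0.21 and -0.21 in the b/b groups. Members below 0 numbered 54, 52 and 73 in +/b and 68, 74 and 71 in b/b groups, against 37.4% to 49% of all tested. In all 3 b/b groups 57 members were below 0 (14.6% of all tested were), in all 3 +/b groups 33 (13.9%), and in all 6 groups 28 (4.85%). The size depended on how the arrays were brought to one scale. After quantile normalization the median was -0.14 in b/b rats, with 71 below 0 (46.2% of all tested were) and 12 lower without overlap (6.82% of all tested). In +/b rats it was -0.02, with 47 below 0 (46% of all tested) and 4 lower without overlap (5.54%). Median centring gave -0.33 with 78 below 0 (53.3% of all tested) in b/b and -0.20 with 74 below 0 (54.6%) in +/b rats. Without the array of +/b duodenum 2, which carried the pancreas signal and had been off scale, the +/b median was -0.17 (68 below 0), and without +/b jejunum 3 it was -0.06 (50 below 0). The b/b median was -0.19 (70 below 0) without b/b duodenum 1, the array of lowest correlation, and -0.31 (76 below 0) without b/b duodenum 3.

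**Figure D4:**
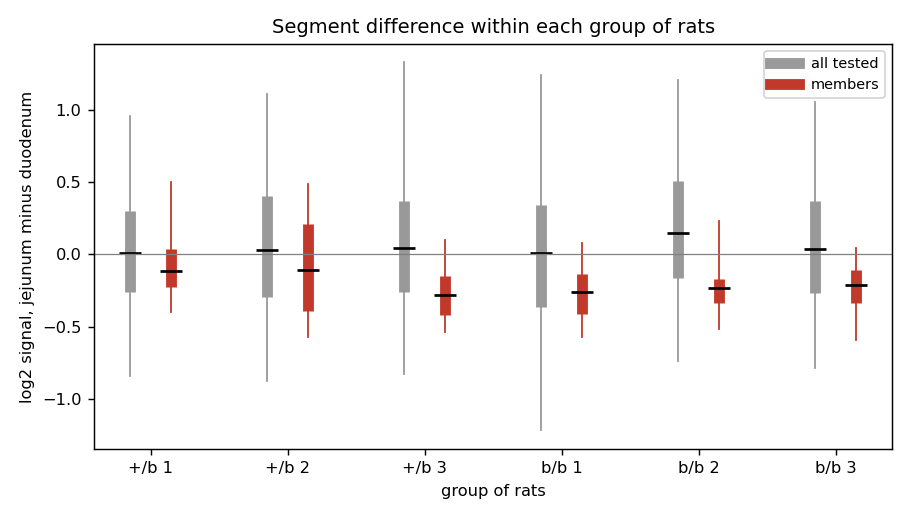
Jejunum minus duodenum on the log2 scale within each of the 6 groups of rats, for the 81 members (red) and all 17694 tested probe sets (grey). Bars span the 25th to 75th percentile, lines the 5th to 95th, and black ticks are medians. The member medians lie below 0 in all 6 groups, and the boxes of +/b group 3 and of the 3 b/b groups lie wholly below 0.

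Other quantities moved with the segments. The 99th percentile of all signals was lower in the jejunum than in the duodenum of the same rats in all 6 groups, by the least in +/b group 2 (13120 to 12420) and by the most in +/b group 3 (11690 to 10150). The members sit near that bright end. Their median signal stood between the 96.5th and 97.4th percentile of the tested probe sets on every array. The shares of all tested given above are not matched for brightness. The summed enterocyte signal was lower in the jejunum in 5 of 6 groups, as in b/b group 1 (336860 to 252560), and higher in b/b group 2 (153900 to 164040). It differed more by replicate number than by segment, with 102090 to 142240 on the 4 arrays numbered 3 and 224420 to 336860 on those numbered 1. Their part in the segment result was not tested.

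By complex, succinate dehydrogenase had the lowest median of the 5 in +/b rats. Its 5 probe sets had a median of -0.35 in +/b and -0.29 in b/b rats, and all 5 were below 0 in both. The brighter Sdhd probe set, a membrane anchor subunit, had 14393, 16250 and 16919 in +/b duodenum and 11166, 10743 and 11653 in +/b jejunum, a change of -0.50 ± 0.18 (limma adjusted p = 0.737). In b/b rats it had 13735, 12870 and 13960 against 10780, 10198 and 11915, a change of -0.30 ± 0.18, and every jejunum array was below every duodenum array in both genotypes. Sdhc, the other membrane anchor, had 11782, 13215 and 11765 against 9802, 9712 and 9353 in +/b rats and 10277, 11924 and 10911 against 9354, 9672 and 9605 in b/b rats. It was lower without overlap in both, with -0.35 ± 0.17 and -0.21 ± 0.17. Sdhb, the iron-sulfur subunit, had -0.42 ± 0.22 and -0.29 ± 0.22, and Sdha, the flavoprotein that oxidises succinate, which is named after its values were seen, -0.29 ± 0.21 and -0.33 ± 0.21. The second Sdhd probe set had -0.11 ± 0.24 and -0.29 ± 0.24.

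Complex I had a median of -0.06 in +/b rats, where 23 of 35 probe sets were below 0, and of -0.23 in b/b rats, where 34 were. Ndufb7, an accessory subunit of the membrane arm, had 6082, 7597 and 7283 in b/b duodenum and 4497, 5376 and 4921 in b/b jejunum, a change of -0.50 ± 0.17 (limma adjusted p = 0.296). In +/b rats it had -0.13 ± 0.17. Ndufv1 had 6174, 7493 and 7649 in b/b duodenum against 4824, 5241 and 5541 in b/b jejunum, without overlap, and a change of -0.44 ± 0.17 (limma adjusted p = 0.357). Its +/b arrays overlapped, with -0.06 ± 0.17. Ndufc1, a small membrane subunit named after its values were seen, had -0.44 ± 0.18 in b/b and -0.10 ± 0.18 in +/b rats. Ndufa13, an accessory subunit of the membrane arm, was lower without overlap in +/b (-0.35 ± 0.16) and in b/b rats (-0.22 ± 0.16). Ndufs4 had -0.58 ± 0.40 in b/b (limma adjusted p = 0.726) and 0.32 ± 0.40 in +/b rats, with overlap in both. The b/b arrays of Ndufs1 overlapped between the segments too, with -0.01 ± 0.17. The genotype effect itself did not pass a test of difference between the segments for any member, with limma adjusted p of 1.00 for the interaction, in which 0% of all tested were called. At an unadjusted p under 0.05 the interaction held 0 members, against 1.01% higher and 0.723% lower of all tested.

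In complex III, Uqcrc1, a core subunit that holds no iron, had the smallest segment p of its complex in both genotypes. Its signal was 18556, 16760 and 13919 in b/b duodenum and 12819, 12045 and 9611 in b/b jejunum, lower in each of the 3 groups of rats and without overlap. The change was -0.51 ± 0.21 (limma adjusted p = 0.408). When each group of rats was fitted as a block, which takes the pairing in, the SE was 0.11 and Uqcrc1 was called (limma adjusted p = 0.0325), the only one of the 81 members, where 2.44% of all tested were called. With a random effect for it instead, the smallest adjusted p of a member was 0.0786 (limma). In +/b rats Uqcrc1 had 16499, 15211 and 12801 against 13156, 11601 and 10132, with overlap, and a change of -0.35 ± 0.21. Under the block 24 members were lower at an unadjusted p under 0.05 in b/b rats and 18 in +/b rats, against 5.76% and 4.4% of all tested, and 0.486% of all tested but 0 members were called in +/b rats. The other probe sets of complex III in b/b rats ran from -0.39 ± 0.20 for Uqcrh, the hinge protein, to -0.07 ± 0.20 for the brighter and 0.64 ± 0.44 for the dimmer Uqcrc2 probe set, another core subunit.

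Complexes IV and V had medians of -0.22 and -0.25 in +/b and of -0.19 and -0.24 in b/b rats. Of complex IV, 12 of 13 probe sets were below 0 in each genotype, but 1 alone, Cox6b1, was lower without overlap, and was so in both (-0.28 ± 0.18 and -0.19 ± 0.18). The 1 above 0 was Cox6c-ps1, with 0.37 in +/b and 0.04 in b/b rats. Cox7b had -0.22 ± 0.23 and -0.38 ± 0.23. Signals of complex IV ran with the replicate number, as Cox4i1 shows with 34483, 24644 and 20472 in b/b duodenum and 29845, 24175 and 17775 in b/b jejunum. This was not particular to complex IV. The mean over all members also fell from replicate 1 to 3 in each group, as in +/b jejunum (0.08, -0.01 and -0.25 from the mean over the 12 arrays). Of complex V, 16 of 19 were below 0 in +/b and 17 in b/b rats. Atp5pd, a stalk subunit, had 20594, 21774 and 17374 against 17162, 16375 and 13650 in +/b rats and 17399, 16551 and 15044 against 13920, 13985 and 13402 in b/b rats. It was lower without overlap in both, with -0.34 ± 0.19 and -0.24 ± 0.19. The bright Atp5if1 probe set had -0.41 ± 0.21 in each genotype, again without overlap. The dim probe sets of Atp5if1 disagreed, with 0.84 and -0.27 in +/b and 0.18 and -0.96 in b/b rats. Atp5me had -0.01 in +/b and -0.65 in b/b rats on its bright probe set, and -0.33 and 1.13 on its dim one. Atp5pf, another stalk subunit, had -0.43 ± 0.21 in +/b rats with overlap and -0.27 ± 0.21 in b/b rats without. The catalytic subunit Atp5f1b, named after its values were seen, had 34648, 33233 and 24241 against 30983, 26266 and 17752 in +/b rats, with overlap (-0.32 ± 0.34). All 11 iron-binding probe sets were below 0 in b/b rats (median -0.27) and 10 of 11 in +/b rats (-0.22), and the other 70 members had -0.23 and -0.11.

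Promoters are shown for 3 members on which the values above turn, Uqcrc1 as the one called under the block, Ndufb7 with the smallest p in the b/b segment comparison and Ndufs1 with the smallest between the genotypes. Respiratory genes are known targets of nuclear respiratory factor 1 (NRF1), of the ETS protein GABP and of YY1. The windows are from RefSeq on build GRCr8, from 250 bases before to 30 after the annotated gene start, in the direction of the gene, and capitals mark the motifs. The positions are chr8:118467973-118468252 (plus strand) for Uqcrc1, chr19:41477262-41477541 (minus strand) for Ndufb7 and chr9:72073576-72073855 (minus strand) for Ndufs1.
Uqcrc1: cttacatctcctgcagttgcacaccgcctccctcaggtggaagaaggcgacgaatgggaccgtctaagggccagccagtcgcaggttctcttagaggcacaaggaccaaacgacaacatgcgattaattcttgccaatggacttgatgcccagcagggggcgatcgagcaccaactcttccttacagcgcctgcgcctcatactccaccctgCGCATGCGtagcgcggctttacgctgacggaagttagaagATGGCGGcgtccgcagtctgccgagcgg
Ndufb7: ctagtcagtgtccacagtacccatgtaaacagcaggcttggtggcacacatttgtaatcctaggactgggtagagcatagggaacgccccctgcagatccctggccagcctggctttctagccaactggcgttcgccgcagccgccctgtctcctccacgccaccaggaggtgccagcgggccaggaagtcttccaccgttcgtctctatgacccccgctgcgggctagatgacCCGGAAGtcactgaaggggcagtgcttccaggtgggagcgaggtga
Ndufs1: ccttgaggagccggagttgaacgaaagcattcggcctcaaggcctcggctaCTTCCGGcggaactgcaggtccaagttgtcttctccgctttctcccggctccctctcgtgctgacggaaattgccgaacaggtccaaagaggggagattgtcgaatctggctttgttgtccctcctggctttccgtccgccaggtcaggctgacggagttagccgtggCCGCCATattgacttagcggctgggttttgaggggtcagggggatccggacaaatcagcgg
The motifs were GCATGCG for the core of the NRF1 site, CCGGAAG for ETS proteins and ATGGCGG for YY1, read on both strands (on the opposite strand the capitals show the reverse complement). In Uqcrc1 the first of them lies on both strands at one place, which makes a capital run of 8 bases. Windows of 300 bases (50 after the start) were found for 66 of the 74 genes and for 27457 genes in all. Of the 66, 47 were placed on the start of the gene in the RefSeq gene table, as the printed ones are, and 19 on a start further down the gene. The NRF1 core was in 9 of 66 member windows (13.6%, against 3.54% of all), the ETS motif in 20 (30.3%, against 9.22%) and the YY1 motif in 16 (24.2%, against 5.22%). At least 1 of the 3 was in 31 of the 66 windows, a count that was not taken over all genes and so has no background. The YY1 motif was in 11 of 31 windows of complex I and in 0 of 10 of complex IV. That motif begins with ATG, and some matches lie past the start, as in Uqcrc1, where coding sequence may begin. How many lie in coding sequence was not counted, and the windows of all genes were not matched to those of the members. A match describes letters in the window and is not a measured site.

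The same medians were taken over genes of neighbouring pathways, with the brightest probe set of each gene, and are given as descriptions. The 74 subunit genes had medians of -0.13 in +/b and -0.24 in b/b rats between the segments, with 60 and 73 below 0. The 40 assembly factors measured, which build the complexes, had 0.01 and -0.08 (20 and 23 of 40 below 0). The 73 genes of the mitochondrial ribosome, which makes the subunits encoded in the mitochondrion, had 0.11 and 0.03 (23 and 31 of 73 below 0). The 12 genes of the citric acid cycle had -0.01 and -0.09. Electron carriers and their shuttles, 8 genes, had -0.16 and -0.11, and 15 regulators of mitochondrial biogenesis had 0.23 and 0.17. Glycolysis had -0.22 and -0.21 over 14 genes, 12 below 0 in each genotype. The cytosolic ribosome, 42 genes added after the data had been seen, had 0.04 and 0.06. No gene of these lists was called in any contrast by limma.

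Between the genotypes the medians of these lists lay on both sides of those of the subunits. Genes of the mitochondrial ribosome had medians of -0.15 in the duodenum and -0.19 in the jejunum, where 67 of 73 were below 0, and the assembly factors -0.10 and -0.17, where 36 of 40 were below 0. The cytosolic ribosome had -0.16 in both, with 35 and 39 of 42 below 0. The regulators of mitochondrial biogenesis had -0.15 and -0.17 (12 and 13 of 15 below 0), the citric acid cycle -0.06 and -0.02, and the electron carriers -0.25 and -0.03. Glycolysis had 0.10 and 0.09, with 10 and 12 of 14 above 0. The subunit genes had -0.01 and -0.06. Among the regulators, named after their values were seen, Esrra, a nuclear receptor, had 0.88 ± 0.36 in the duodenum and 0.11 ± 0.36 in the jejunum. The coactivator Pprc1 had -0.75 ± 0.28 (duodenum) and -0.19 ± 0.28 (jejunum), and its relative Ppargc1b -0.54 ± 0.29 and -0.60 ± 0.29. Tfam, which packages mitochondrial DNA, had -0.60 ± 0.33 in the duodenum and -0.38 ± 0.33 in the jejunum. Ppargc1a, a coactivator of mitochondrial biogenesis, had 0.11 ± 0.28 and 0.24 ± 0.28. Cs, citrate synthase, also named after its values were seen, had 0.20 ± 0.21 and 0.18 ± 0.21 between the genotypes. Between the segments it had -0.34 ± 0.21 and -0.36 ± 0.21, beside medians of -0.01 and -0.09 for the citric acid cycle.

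**Figure D5:**
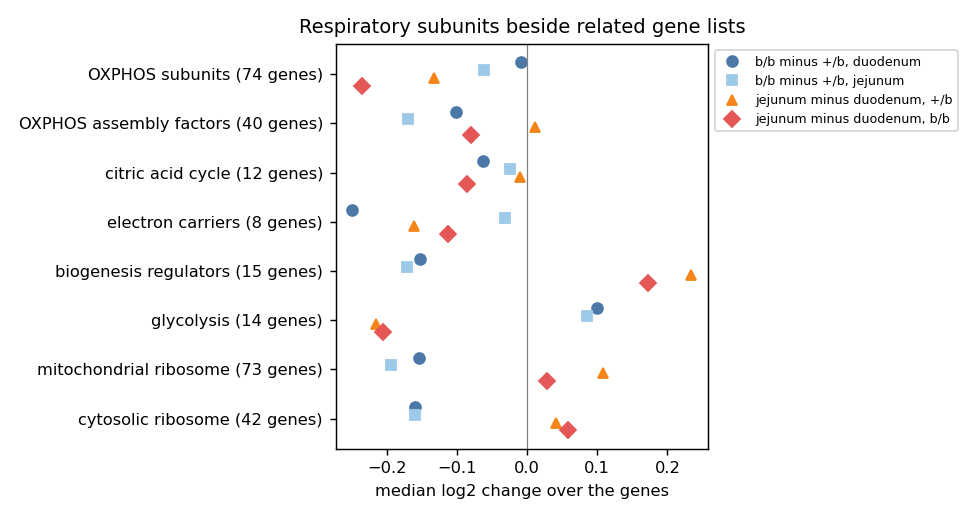
Median log2 change over the genes of 8 lists, with the brightest probe set of each gene, in 4 comparisons (symbols). The numbers of genes measured are in brackets. The subunits, glycolysis, the citric acid cycle and the electron carriers lie left of 0 in both segment comparisons. The mitochondrial ribosome (-0.15 and -0.19) lies left of the subunits (-0.01 and -0.06) in both genotype comparisons. So do the assembly factors, the cytosolic ribosome and the biogenesis regulators.

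Over the 12 arrays the members followed each other unevenly. The correlation of a member with the mean of the others ran up to 0.953 for Cox7b and 0.932 for Uqcrc1 and down to -0.48 for Ndufa4 and -0.59 for the dim Atp5me probe set. Outside the members, the genes whose profile correlated most with their mean were Gstp1 (r = 0.945), a glutathione transferase, Ccdc107 (0.906) and Arpc2 (0.904), a subunit of the actin nucleating Arp2/3 complex. These are descriptions over 12 arrays that share the scaling and the differences between replicate numbers noted above.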

How the data were processed

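Biotin-labelled total RNA of mucosal scrapes (Trizol, then a purification kit) was read on 12 one-colour Affymetrix arrays, per the labels' protocols. The authors deposited 1 linear signal intensity for each probe set and array. For 10 arrays the submitters' processing notes name MAS5, with its version not given in the sources used here. Probe sets were named from the platform annotation (20826 with 1 gene, 436 with several and 9780 with none). Of 31099 probe sets, 57 controls were left out, and 17694 whose scaled signal averaged 100 or more were tested. Multiplying 2 arrays by 9.69 and 3.95 also multiplied the noise of their dim probe sets.

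Each array was scaled to a mean of 500 trimmed by 2% at each end, and log2(signal + 16) was fitted with limma 3.58.1 in R 4.3.3 (4 group means, eBayes with an intensity trend, two-sided p, Benjamini-Hochberg over all probe sets). The pseudocount understates changes of dim probe sets. The fit was tested on simulated data. The number of arrays limits the precision, and arrays give no depth. Nothing says how many rats a group held, so p-values measure the spread between these samples.

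Same-numbered duodenum and jejunum arrays of a genotype come from 1 group of rats per the series design. By that design they were treated as pairs in the blocked fit. Their deviations from the group means correlated at 0.277, 0.194 and 0.186 in +/b and at 0.359, 0.158 and 0.382 in b/b rats. Same-numbered arrays of the other genotype were not compared. These correlations therefore cannot tell shared rats from differences between replicate numbers.

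The members, gene lists and tests were chosen with earlier results of these data known. Members named were drawn from the 3 largest changes in each direction per contrast and the smallest p per complex. The 10 iron-binding genes, those of the isoform pairs that were members and Atp5if1 were named whatever their result. Not every change of each named member is printed. Other genes named are said to be chosen after their values were seen. Promoters came from RefSeq (GRCr8). All 81 members matched a RefSeq gene.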

Additional observations from a re-analysis of the deposited data

How the results depend on the processing

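No member was called by limma in any contrast under the pseudocounts, filters, eBayes without trend, array weights, median centring, quantile normalization, the random effect of the rat group, 1 probe set per gene or without any single array. With the replicate block 1 member was called in b/b rats between the segments, Uqcrc1, and no other named result changed its call. That block was the rat group for the segment contrasts and the interaction. For the genotype contrasts it was the replicate number, as each rat group has a single genotype. Of 3133 alternatives of 160 named results, 2883 kept direction and side of the threshold, 244 changed sign with neither value past it, and 6 passed it only under the alternative, 5 of them without rescaling.

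Values as deposited, without rescaling, gave in the duodenum genotype contrast 1 called member (2.07% of all tested were called), a median of 1.73, 0 members below 0 and 0 lower without overlap. In the +/b segment contrast they gave 13 called (49% of all tested), a median of 1.61, 0 below 0 and 0 lower without overlap, and in the interaction a median of -1.79 with 80 below 0. All tested probe sets then shifted by 1.51, 1.61 and -1.55, because the 2 off-scale arrays stayed low. Leaving both out left 1 array, replicate 1, as the whole +/b duodenum group. The medians of the members were then -0.11, -0.21 and 0.03, beside -0.08, 0.01 and 0.05 over all tested. The counts below 0 and without overlap were added after seeing the data.

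Members lower without overlap numbered 1 in the duodenum and 2 in the jejunum genotype contrast under median centring (4.14% and 3.49% of all tested), and 15 in the +/b and 26 in the b/b segment contrast (7.49% and 7.62%). Under quantile normalization they numbered 1 and 7 (4.57% and 4.23%), 4 in the +/b and 12 in the b/b segment contrast (5.54% and 6.82%). Without single arrays the members below 0 ranged from 27 to 48 in the duodenum and from 37 to 73 in the jejunum genotype contrast. The median of the interaction ranged from -0.19 to -0.0111, the b/b segment median from -0.31 to -0.18 and the +/b segment median from -0.19 to -0.06.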
